A study of Mus musculus with 2 samples.

Results

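The genes that join cells to one another were examined in mouse embryonic stem (ES) cells. They comprise 44 named genes, chosen by symbol and all present among the 28592 genes of the table: 7 cadherins, 5 catenins, the epithelial adhesion molecule Epcam, 9 claudins, 7 further tight junction and polarity genes, 6 desmosome genes, 3 connexins and 6 transcription factors of epithelial-mesenchymal transition. The cells were E14TG2a, an established male line deficient in Hprt, kept in 2i/LIF. That medium inhibits MEK and GSK3, supplies leukaemia inhibitory factor and keeps ES cells in the naive ground state. Total RNA depleted of ribosomal RNA was sequenced from 1 group of 2 replicates, which share the genotype of the line. Nothing in the labels says that the replicates were separate cultures, so their spread may be technical, and no other condition was measured.

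Cadherins are transmembrane proteins that bind cadherins of the neighbouring cell, and catenins tie their inner ends to actin. Tight junctions, built from claudins and occludin on a scaffold of zonula occludens proteins, seal the space between epithelial cells, desmosomes anchor intermediate filaments, and connexins form gap junction channels that let small molecules pass. E-cadherin holds the compact colonies of naive ES cells together. Repressors of the Snai, Zeb and Twist families lower it when epithelial cells turn mesenchymal.

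Levels are given as FPKM, the number of sequenced fragments divided by transcript length and by a measure of library size. They are per length, so that genes can be compared. Genes that reached FPKM 1 in each replicate were called detected. The libraries summed to 946498 and 928174 FPKM, the number of reads is not known, and 0 is reported as listed because it can be a failed estimate. All 6 ES cell markers were detected, from 90.8 for Esrrb in replicate 2 to 7123 for Dppa5a in replicate 1. Of 8 fibroblast markers and 6 primitive endoderm markers none was detected, and of 6 trophectoderm markers only Cdx2 was, at 1.13 and 1.46. In bulk RNA, fewer cells of a type and less RNA per cell cannot be told apart.

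Of the 44 genes 26 were detected (59.1%), against 39.4% of all genes in the table and 50.6% of those that RefSeq types as protein-coding. The members' median was 2.14 ± 0.153 (SD of the replicate medians, n = 2), against 0.233 for all genes, coding or not. Among detected genes the order was reversed. The median was 8.99 for the 26 detected members, against 12.7 for all detected genes and 13.5 for the coding ones. The detected share of 59.1% is not far above the coding background, and the members' means ran from 0 to 91.5. Ctnna1, Cldn4, Cdh1 and Gjc1 were the 4 highest members, a catenin, a claudin, a cadherin and a connexin. In the order of the 26 detected members, the replicate ranges of 18 of 25 neighbouring pairs did not overlap. Listed at 0 in both replicates were Cldn1 and Pkp1. The spans of 15 members overlap that of another RefSeq gene, for 4 of them a coding gene. These are overlaps of whole spans, introns included, and whether exons overlap was not examined.

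**Figure D1:**
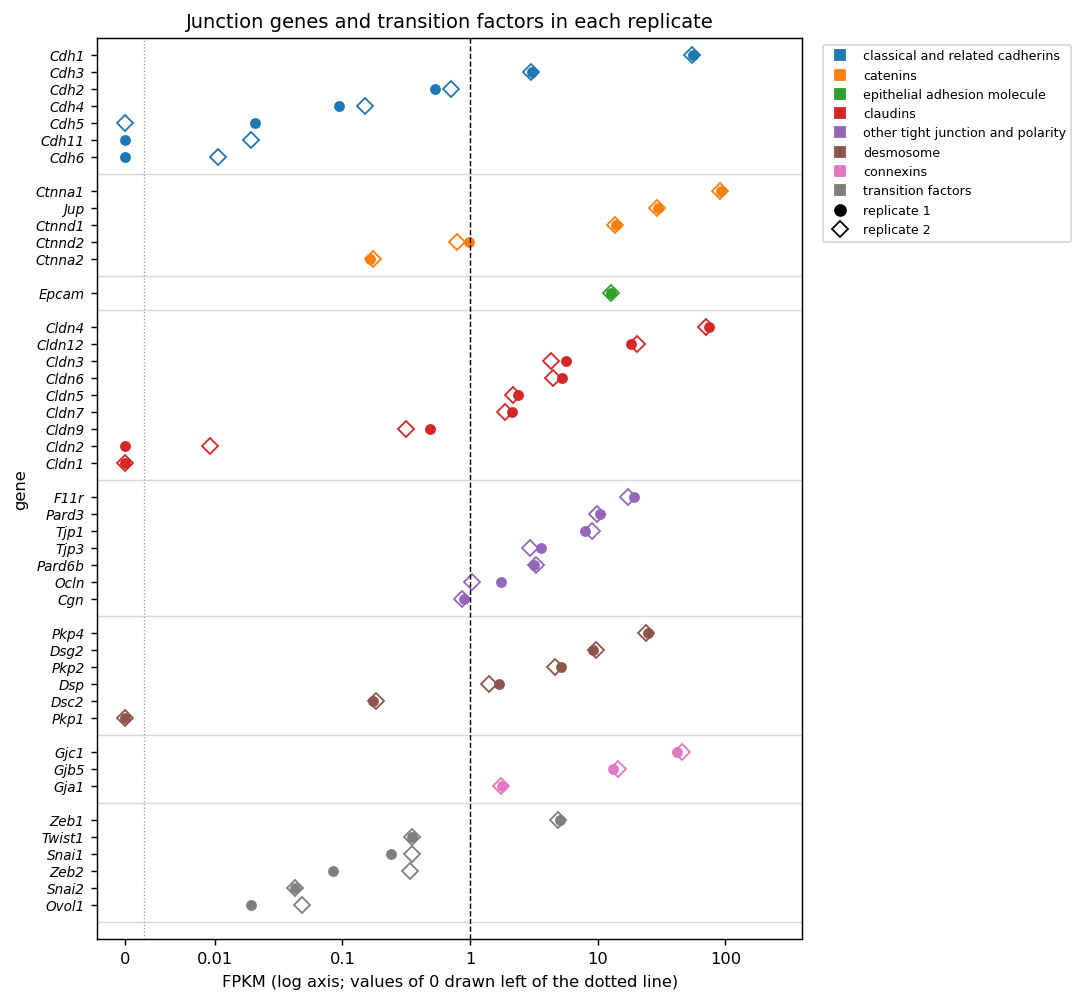
FPKM of each of the 44 genes on a log axis, grouped by role, with filled circles for replicate 1 and open diamonds for replicate 2. The dashed line marks the detection limit of 1. Within most families 1 or 2 genes lie well to the right of the rest, and Zeb1 is the only transition factor past the line.

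Among the cadherins, E-cadherin stood far above the others. Cdh1 (chromosome 8, 106603350 to 106670247) was at 55.5 and 54.6 in replicates 1 and 2, a mean of 55.1 ± 0.644 (SD, n = 2) that lay at percentile 93.4 of all genes. Cdh3, which encodes P-cadherin of placenta and basal epithelia, was at 3.04 and 2.99. Cdh2, which encodes the N-cadherin of neural and mesenchymal cells, was below detection at 0.527 and 0.708. Cdh1 thus exceeded Cdh2 by 105-fold in replicate 1 and 77.1-fold in replicate 2, and the replicate ranges of Cdh1, Cdh3 and Cdh2 did not overlap. Cdh4, the R-cadherin of retina and brain, was at 0.0947 and 0.151. The remaining 3 were each listed at 0 in 1 replicate. Cdh5, the endothelial cadherin, was at 0.0206 in replicate 1 and 0 in replicate 2. Cdh6 and Cdh11, found in kidney and in mesenchyme, were at 0 in replicate 1 and at 0.0107 and 0.0194 in replicate 2. Of the 6 endothelial markers, Pecam1 was detected at 26.3 and 25.4 and Tek at 3.06 and 2.93, with the other 4 below detection. The summed FPKM of these markers was 29.7 and 28.8, of which Pecam1 alone made up 88.6% and 88.1%. Whether these levels come from endothelial cells was not tested.

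Of 23 measured cadherin genes 2 were detected, Cdh1 and Cdh3. None of the 16 that are not among the 44 reached a mean above 0.264. Cdh1 made up 92.6% and 92.2% of the summed FPKM of the 23 measured genes in replicates 1 and 2, Cdh3 made up 5.07% and 5.05%, and Cdh2 0.879% and 1.20%.

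Of the 5 catenins 3 were detected, and the neural forms Ctnnd2 and Ctnna2 were not. Ctnna1 (chromosome 18, 35118902 to 35254776), alpha-E-catenin, links the cadherin complex to actin and was the highest of the 44 at 92.0 and 91.1. Jup, or plakoglobin, serves both adherens junctions and desmosomes and was at 29.5 and 29.2. Ctnnd1 binds the juxtamembrane part of cadherins and keeps them at the surface, and it was at 13.8 and 13.7. The replicates of each of these genes lay close together, and their order did not depend on the replicate. The neural form Ctnnd2 was just under the limit at 0.987 and 0.789, and neural Ctnna2 was at 0.164 and 0.173.

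Ctnna1 RNA exceeded Cdh1 RNA by 1.66-fold in replicate 1 and 1.67-fold in replicate 2. Ctnnb1, beta-catenin, which also carries Wnt signals, is not among the 44 and led the adherens junction list at 403 and 408. It was 7.26-fold and 7.47-fold above Cdh1 and 13.7-fold and 13.98-fold above Jup, its close relative. In that list of 15 genes 10 were detected. Among the others were the actin linker Afdn at 36.3 and 39.6, the adhesion molecules Nectin2 at 31.0 and 27.5 and Nectin3 at 25.1 and 24.9. Nectin1 and Nectin4 were below detection, at most 0.438 in either replicate. The span of Ctnna1 holds Lrrtm2, which was at 0.290 and 0.247, far below Ctnna1 itself.

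Epcam (chromosome 17, 87635979 to 87651127), a surface glycoprotein of epithelia and of ES cells that mediates contact between cells without belonging to the cadherins, was at 12.7 in both replicates. Its mean of 12.7 ± 0.0124 (SD, n = 2) lay at percentile 48.3 of the detected coding genes. It was thus near the middle of detected coding genes, whereas Cdh1 lay at percentile 83.3 and Cldn4 at 87.2 of the same genes.

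**Figure D2:**
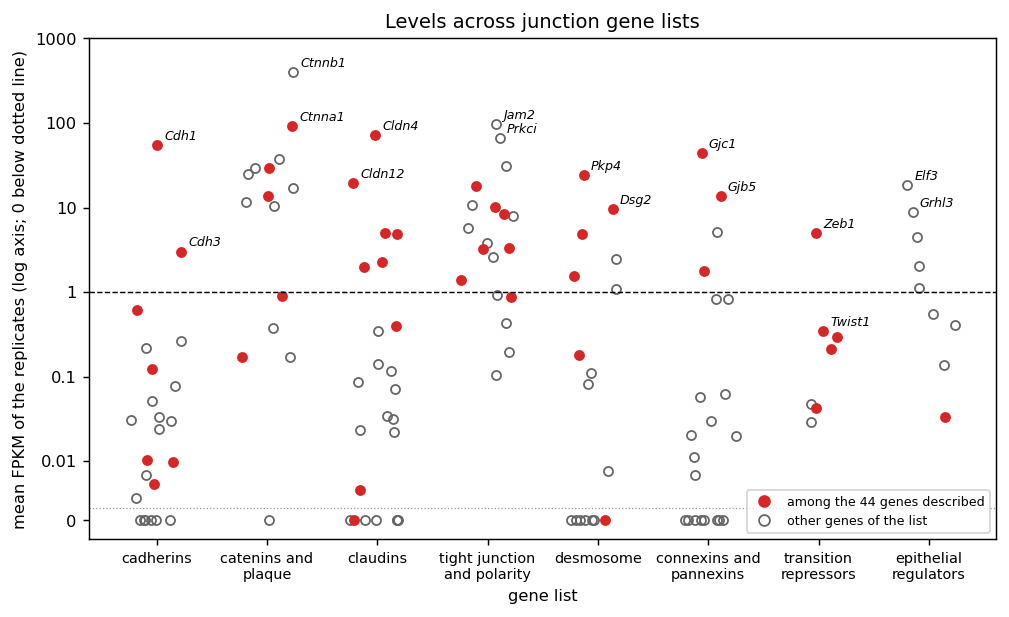
Mean FPKM over both replicates on a log axis for each gene examined of 8 lists, with those among the 44 genes described here filled and the other genes of each list open. The dashed line marks FPKM 1. Above the line lie 2 of 23 cadherins and 6 of 24 claudins, with Cdh1 and Cldn4 the highest of each list. Most genes of the catenin and tight junction scaffold lists also lie above it.

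Among claudins, the strand-forming proteins that set the permeability of tight junctions, Cldn4 was the highest. It was at 73.9 and 70.7, a mean of 72.3 ± 2.28 (SD, n = 2). Cldn12 followed at 18.3 and 20.3. Cldn3 was at 5.66 and 4.27, and Cldn6, a claudin of early embryonic epithelia, at 5.24 and 4.46. The replicate ranges of Cldn3 and Cldn6 overlapped, so these neighbours were not separated, whereas those of Cldn4, Cldn12 and this pair were. Cldn5, the main claudin of brain endothelium, was at 2.37 and 2.17, and Cldn7 at 2.12 and 1.88. Below the limit were Cldn9 at 0.487 and 0.317, the leaky-epithelium claudin Cldn2 at 0 and 0.00913, and the epidermal claudin Cldn1, listed at 0.

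All 6 detected claudins of the 24 measured were among the 44, since none of the 15 others was detected and their highest mean was 0.346. Cldn4 made up 67.9% and 67.3% of the summed FPKM of the 24 measured claudins, and Cldn12 16.8% and 19.3%. Of the 24, 7 were listed at 0 in both replicates.

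Several of these genes lie next to a relative whose level was very different. Cldn4 (chromosome 5, 134945123 to 134946934) and Cldn3 (134986214 to 134987476) are separated by 39.3 kb with no RefSeq gene between, and Cldn4 exceeded Cldn3 by 13.1-fold and 16.5-fold in replicates 1 and 2. Cldn6 (chromosome 17, 23679348 to 23682446) ends 137 bases before Cldn9 (23682584 to 23684026) and exceeded it by 10.8-fold and 14.1-fold. Cdh3 (chromosome 8, 106510852 to 106556911) ends 46.4 kb before Cdh1, with no coding gene between, and Cdh1 was 18.3-fold higher in replicate 1 and 18.2-fold higher in replicate 2. In none of these pairs did the replicate ranges overlap. Related genes can share reads where their sequences are alike, and how the authors' counting divided such reads is not given.

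**Figure D3:**
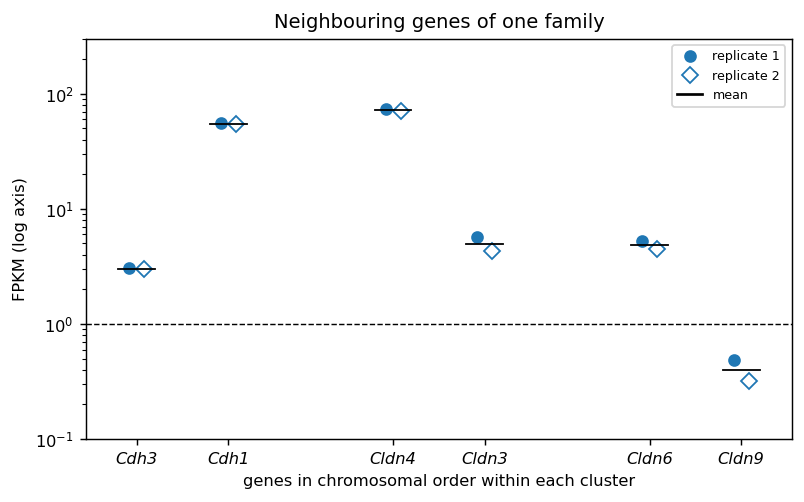
FPKM on a log axis for 3 pairs of neighbouring genes, drawn in chromosomal order, with filled circles for replicate 1, open diamonds for replicate 2 and bars for the mean. In each pair 1 gene, Cdh1, Cldn4 or Cldn6, lies above its neighbour by more than the distance between replicates.

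The stretches before the starts of Cldn4, Cldn3 and Epcam are shown because Cldn4 and Cldn3 are neighbours of very different level and because Cldn4 and Epcam carry the letters CACCTG, the form of E-box that Snai and Zeb repressors bind. Each is the 250 bases before the RefSeq start on GRCm38.p6, read 5′ to 3′ on the strand of the gene, with matches to CACCTG on either strand in capitals. They lie at chr5:134946935-134947184 on the minus strand for Cldn4, chr5:134985964-134986213 on the plus strand for Cldn3 and chr17:87635729-87635978 on the plus strand for Epcam.
Cldn4: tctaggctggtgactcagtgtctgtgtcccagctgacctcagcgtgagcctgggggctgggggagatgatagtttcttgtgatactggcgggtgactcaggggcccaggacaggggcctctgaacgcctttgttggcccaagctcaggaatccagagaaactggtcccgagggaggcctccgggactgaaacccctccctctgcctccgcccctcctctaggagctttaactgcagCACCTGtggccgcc
Cldn3: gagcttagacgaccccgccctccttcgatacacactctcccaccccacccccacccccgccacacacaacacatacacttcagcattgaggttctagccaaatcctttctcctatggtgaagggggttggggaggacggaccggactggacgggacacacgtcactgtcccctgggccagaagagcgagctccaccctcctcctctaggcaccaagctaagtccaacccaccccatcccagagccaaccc
Epcam: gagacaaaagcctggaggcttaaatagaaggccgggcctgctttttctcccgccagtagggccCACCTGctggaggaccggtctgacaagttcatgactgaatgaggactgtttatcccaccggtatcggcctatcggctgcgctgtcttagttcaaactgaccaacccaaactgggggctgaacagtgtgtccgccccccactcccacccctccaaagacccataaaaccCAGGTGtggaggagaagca

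In Cldn4 the match begins 14 bases before the start. In Epcam there are 2 matches, beginning 187 and 19 bases before it, and in Cldn3 this window has none. Promoters were found for 28 of the 44 genes, with 39 starts in all. Cdh1, Cdh2, Cdh3, Ctnna1, Gjc1 and Zeb1 were among the genes without one, so the motif counts do not cover them. CACCTG on either strand was present before 13 of these 39 starts, against 17.2% of the 32851 starts in the RefSeq table. By gene, 10 of the 19 detected members with a promoter had it at 1 or more starts, and 2 of the 9 below detection did. Counted the same way, 19.5% of the 18824 genes with a promoter and a row in the table had it, 17.8% of the detected ones and 21.0% of the others. No test of detected against undetected members was made. The palindrome AACNNGTT, a core of the Grainyhead binding site that shares no overlap with CACCTG in these windows, was present before 2 of the 39 starts, those of Cldn5 and Cgn, against 3.64% of all starts. A match is a run of letters and does not show that a factor binds.

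Of the other tight junction and polarity genes 6 of 7 were detected. F11r, the junctional adhesion molecule JAM-A, was the highest at 19.1 and 17.2. The polarity scaffold Pard3, which marks the apical border of the junction, was at 10.5 and 9.83, and its partner Pard6b at 3.17 and 3.26. The scaffold Tjp1 (zonula occludens) was at 8.003 and 8.98 and its relative Tjp3 at 3.62 and 2.95. Ocln, occludin, was the lowest detected member of the 44 at 1.73 and 1.04, so that its second replicate lay just inside the limit. Cgn, cingulin, which ties the junction to the cytoskeleton, was just outside at 0.901 and 0.857. The span of Tjp3 overlaps that of Apba3, at 16.6 and 16.2, and neither the use of strand nor the overlap of exons is known, so the level of Tjp3 is uncertain.

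In the wider scaffold and polarity list 14 of 19 genes were detected, 8 of them outside the 44. Among these were the adhesion molecule Jam2 at 97.9 and 97.0, the polarity kinase Prkci at 68.5 and 63.5, Jam3 at 31.3 and 31.2 and the kinase Prkcz at 10.8 and 10.7. Jam2 exceeded its relative F11r by 5.14-fold and 5.65-fold. The tight junction proteins Marveld2 and Marveld3 were below detection, at most 0.450 in either replicate.

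Of the 6 desmosome genes 4 were detected. Pkp4, a plakophilin relative found at adherens junctions as well, was the highest at 24.6 and 24.0. The desmosomal cadherin Dsg2 was at 9.25 and 9.74, the plakophilin Pkp2 at 5.19 and 4.66, and the linker to intermediate filaments, Dsp, at 1.68 and 1.41. Dsc2, the desmocollin of simple epithelia that pairs with Dsg2, was at 0.175 and 0.184, and the epidermal plakophilin Pkp1 was listed at 0. The order of these genes was the same in both replicates and no neighbouring ranges overlapped. In the list of 17 desmosome genes 6 were detected, with Pkp3 at 2.15 and 2.78 and Perp at 1.17 and 1.011 added to the 4 named. The genes listed at 0 in both replicates numbered 7, among them Dsg1a, Dsg3 and Dsc1 of stratified epithelia.

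All 3 connexins were detected. Gjc1 (chromosome 11, 102799477 to 102819686) was at 41.9 and 45.4, Gjb5 at 13.2 and 14.5, and Gja1, the connexin of heart muscle and many other tissues, at 1.77 and 1.76. Gjc1 exceeded Gja1 by 23.6-fold and 25.8-fold, and the ranges of the 3 genes did not overlap. Gja1 lay at percentile 6.31 of the detected coding genes.

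Of the 18 other connexin and pannexin genes examined, Panx1, which forms channels of a related kind, was detected at 4.92 and 5.24, and the means of the rest were at most 0.823. Among these were Gja4, the connexin of vascular cells, at 0.931 and 0.702, and Gjb1, the connexin of liver and myelinating glia, at 0.656 and 0.989. Genes of this list listed at 0 in both replicates numbered 7. The list is not the whole family, so no share of a family total is given.

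Of the 6 transcription factors of the transition only Zeb1 (chromosome 18, 5591327 to 5775468) was detected. It was at 5.10 and 4.85, a mean of 4.98 ± 0.177 (SD, n = 2) close to those of Cldn3 and Pkp2. Twist1 was at 0.3503 and 0.3500, Snai1 at 0.239 and 0.349, and Snai2 at 0.0427 in both. Zeb2 was at 0.0845 and 0.339, so Zeb1 exceeded it by 60.4-fold in replicate 1 and 14.3-fold in replicate 2. Ovol1, which counters the transition in epithelia, was at 0.0193 and 0.0481. Snai3 and Twist2, the other repressors of the same families, reached at most 0.0959 in either replicate, so 1 of 7 repressors was detected.

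The equal values of Snai2 are no measure of its error, since many of the lowest FPKM values came in steps. Among the 2288 genes whose mean was under 0.1 and that were never at 0, 66.8% had replicates whose quotient matched that of whole numbers no larger than 8, to within 0.01 on the log2 scale. Such quotients cover 14% of the range of log2 ratios considered. The replicate ratios need not be spread evenly over that range, so 14% is not an expected share. Of 9 epithelial regulators, a list that holds Ovol1, 4 were detected. These were Elf3, an ETS factor of epithelia, at 18.7 and 17.9, the Grainyhead factor Grhl3 at 9.14 and 8.71, the splicing factor Esrp2 at 4.61 and 4.25 and Grhl2 at 1.87 and 2.23. Ovol2 was at 1.41 in replicate 1 and 0.807 in replicate 2.

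The replicates were close for most detected members. On the log2(FPKM + 1) scale none of the 26 differed by more than 1.5-fold, and 0.684% of all 11253 detected genes did. The furthest were Ocln at -0.42 (replicate 2 over replicate 1), Cldn3 at -0.34 and Tjp3 at -0.23. All 3 have means between 1 and 5 FPKM, where, of the levels from 1 upward, the replicates lay furthest apart, with a median absolute log2 ratio of 0.17 without a pseudocount against 0.09 at 5 to 20 FPKM. Their log2 ratios without a pseudocount were -0.73, -0.40 and -0.29. Lower in replicate 2 were 20 of the 26, against 51.2% of detected genes, with a median log2 ratio of -0.03 for the 26 and of -0.0035 for all detected genes. Of the 6 that were higher in replicate 2, Tjp1 and Cldn12 had the largest differences, at 0.15 each. With pseudocounts of 0.1 and 0.01 Ocln passed the 1.5-fold limit. No test between single libraries was possible.

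Of the 18 members below detection, 10 were higher in replicate 2 and 6 lower. The same shares over all genes below detection were not counted, so no result about the members is drawn from these counts. The 10 included Cdh2, Cdh11, Snai1 and Zeb2, known from mesenchymal cells among others, and also Cdh4, Cdh6, Ctnna2, Cldn2, Dsc2 and Ovol1. Of these, Cdh6, Cdh11 and Cldn2 were listed at 0 in replicate 1. Zeb1, the detected transition factor, was lower in replicate 2. Snai2 and Twist1 count among the 6 lower members, although their replicates were equal to 3 digits. The summed FPKM of the fibroblast markers was 0.415 in replicate 1 and 3.24 in replicate 2, with 7 of 8 higher in the latter. Also higher in replicate 2 were 5 of 6 trophectoderm, 4 of 6 endothelial, 3 of 6 primitive endoderm and 1 of 6 ES cell markers. No share over all genes below detection stands beside these counts, so no result is drawn from them. Col1a2 was at 0.0101 and 0.917, while Postn and Dcn were listed at 0 in replicate 1 and Lum in replicate 2. The part of the fibroblast markers' difference in the values of the members below detection was not tested.

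**Figure D4:**
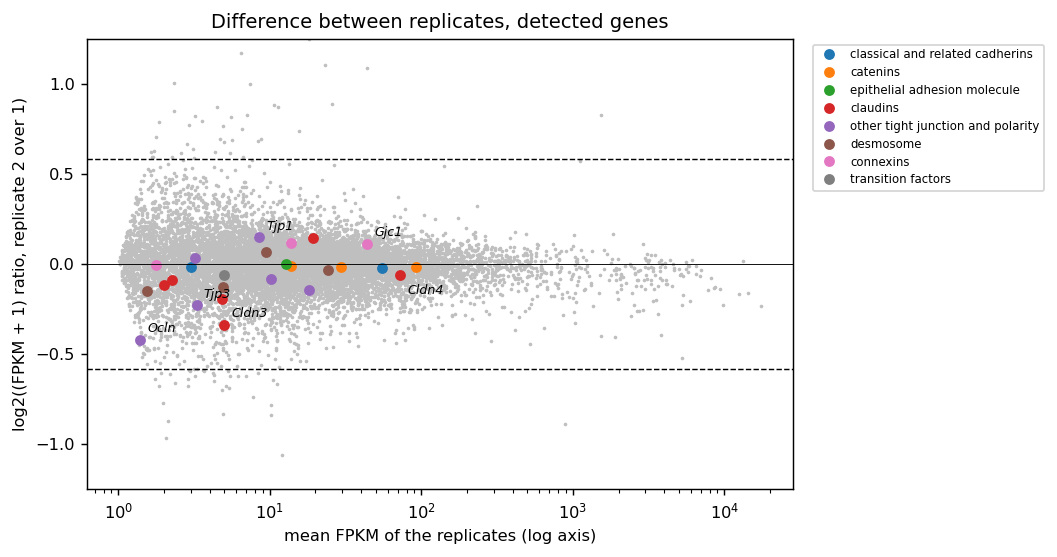
Log2 ratio of FPKM + 1 between replicate 2 and replicate 1 against mean FPKM on a log axis, with all detected genes in grey and the 26 detected members in colour by role. Dashed lines mark a 1.5-fold difference, all 26 lie between them, and 4 detected genes fall outside the axis.

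Over the 6 junction lists as examined, 42 of 119 genes were detected (35.3%), against 39.4% of all genes and 50.6% of coding genes. The counts ran from 2 of 23 cadherins to 14 of 19 scaffold and polarity genes. The cadherin and claudin lists had medians of 0.0241 and 0.0528, below the 0.233 of all genes. The medians of the catenin and scaffold lists were 13.7 and 3.85.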

How the data were processed

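The authors deposited gene-level FPKM for both replicates as a single table. The tools named are CASAVA, TopHat2 and Cufflinks and the builds mm10 and GRCm38, per the submitters' processing notes. Tool versions, the annotation, strand use and scaling across libraries were not given in the sources used here. Each column bears the description of its sample.

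Identifiers were matched to symbols for 28256 of 28592 genes. Of 168 listed names 167 were found, the exception being Pals1. A few further genes of the connexin and scaffold lists are not reported here and entered no count of those lists. The 44 members were named with the series, and the other gene lists and limits were chosen with earlier results of these data known. All 44 members are named, with the detected non-members of each list, at most the 4 highest. With 1 group there is no test between conditions, and lists are described by counts and medians. Detection means an FPKM of at least 1 in both replicates. Differences between replicates used log2(FPKM + 1), so they understate the changes of low genes.

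Gene spans, types and promoters came from RefSeq on GRCm38.p6. Both motifs were searched in the 250 bases before each start. Python 3.11.15, pandas 2.3.3, numpy 2.4.6 and matplotlib 3.10.9 were used, and the counting was tested on simulated data. Alternatives covered detection limits, pseudocounts, rescaling to TPM, centring and leaving out each replicate.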

Additional observations from a re-analysis of the deposited data

How the results depend on the processing

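At a detection limit of FPKM 5 the count of detected members was 14 in place of 26, that of the 119 junction family genes was 26 in place of 42, and that of the 7 transition-inducing repressors was 0 in place of 1. At a limit of 0.1 there were 3 such repressors detected. The members' median FPKM was 4.07 over those at a mean of at least 0.1, against 2.14 over all 44. With pseudocounts of 0.1 and 0.01, 1 detected member, Ocln, was more than 1.5-fold apart between the replicates, in place of 0. Without replicate 1 or replicate 2 the counts of detected members, repressors and family genes were 26, 1 and 42 in both cases, and the members' median was 2.03 to 2.24. The ratio of Cdh1 to Cdh2 was 77.1 to 105 over the single replicates. Limits of 0.1 and 0.5 gave 34 and 29 detected members. Rescaling to TPM multiplied the members' means by 1.06 to 1.08 and left the 3 counts as they were. No paired analysis was possible because there is only 1 group. Reads per gene are not known, so no counting error is given, and members at a low FPKM are the least certain.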
